A study of Mus musculus with 4 samples.

Results

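The 9 Eph receptor genes Epha3, Epha4, Epha5, Epha6, Epha7, Ephb1, Ephb2, Ephb3 and Ephb4 were followed by symbol in single-cell RNA sequencing of the embryonic mouse nose. All 9 were found among the 32285 genes counted, and they were read in the 13739 cells, from 4 libraries, that had at least 500 detected genes and at most 10% of UMIs from mitochondrial genes. UMIs are molecular identifiers, so each count is 1 captured RNA molecule.

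The study took whole noses at embryonic day 14.5 and compared controls with mutants in which Yap1 and Wwtr1 (TAZ), the transcriptional co-activators of the Hippo pathway, carry floxed alleles in Sox10-Cre mice. Titles name the 2 control libraries WT and the 2 mutant libraries Sox10Cre/Yap/Taz cKO. The sources differ on the alleles. The sample labels call controls C57Bl/6J and mutants Tg(Sox10-cre)1Wdr with Yapflox and Tazflox on C57Bl/6J, whereas the series' design gives controls as yap flox/flox;taz flox/flox with no Cre and mutants as Sox10cre;yap flox/WT;taz flox/flox. By the design, then, controls share the floxed alleles, and mutants keep 1 unfloxed yap allele and lose function only where the Sox10 promoter, active in neural crest, has driven Cre. The protocol names 2 noses per genotype and does not say which of its sequencing providers handled which library, so a provider effect cannot be told apart from the genotype. Nothing says that the replicates were separate animals, and p-values measure the spread between these libraries only.

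Eph receptors are receptor tyrosine kinases that bind ephrins on the surface of touching cells, and both the receptor-bearing and the ephrin-bearing cell can signal. A-class receptors mainly bind lipid-anchored ephrin-A ligands and B-class receptors bind transmembrane ephrin-B ligands, with Epha4 able to bind both. Contact between them steers migrating neural crest and growing axons and keeps neighbouring cell populations apart, and in the head the family is known for roles in the palate, sutures and facial skeleton.

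Cells kept numbered 4075 and 2474 in control 1 and control 2, and 2995 and 4195 in mutant 1 and mutant 2, with median UMIs per cell from 5282 in mutant 2 to 8549 in mutant 1. Pairs of libraries shared 3 to 5 cell barcodes. Each cell was assigned to the class for which most marker genes were detected, and 10247 cells were mesenchyme, with 2983, 1958, 2262 and 3044 in control 1, control 2, mutant 1 and mutant 2. A median of 6 of the 10 mesenchyme markers (such as Pdgfra, Prrx1, Twist1 and Msx1) was detected per mesenchyme cell in every library, against a median of 0 of the chondrocyte and endothelial lists. In mesenchyme, Yap1 stood at 64.4, 66.5, 55.5 and 57.8 CPM (UMIs of a gene per 1000000 UMIs of all genes in the same cells) in that library order and Wwtr1 at 141, 159, 140 and 152 CPM. Both mutants were below both controls for Yap1 there, and the groups overlapped for Wwtr1. In glia, a class whose markers include Sox10, Yap1 overlapped at 55.05, 57.77, 45.55 and 58.93 CPM, on 23, 14, 17 and 9 UMIs. Wwtr1 stood at 215, 198, 241 and 314 CPM in glia, with both mutants above both controls. The sources used here do not place the deleted part relative to the counted 3′ ends, so whether these values bear on recombination is not known.

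Promoter sequence is shown for Epha3, Epha4, Epha5 and Epha6, the receptors that were called higher in some mesenchyme subtypes and lower in others. Each is the 250 bases before the RefSeq start of the gene in build GRCm38.p6, 5′ to 3′ on the gene's own strand, which is the minus strand for all 4. The stretches lie at chr16:63864176-63864425 for Epha3, chr1:77515089-77515338 for Epha4, chr5:84417383-84417632 for Epha5 and chr16:60605532-60605781 for Epha6, outside the transcribed gene. Capitals mark matches to GGAATG, the motif of the TEAD factors through which YAP and TAZ act, or to TAATTA, a core bound by many homeodomain factors. Both strands were searched, and the motifs do not overlap in these windows.
Epha3: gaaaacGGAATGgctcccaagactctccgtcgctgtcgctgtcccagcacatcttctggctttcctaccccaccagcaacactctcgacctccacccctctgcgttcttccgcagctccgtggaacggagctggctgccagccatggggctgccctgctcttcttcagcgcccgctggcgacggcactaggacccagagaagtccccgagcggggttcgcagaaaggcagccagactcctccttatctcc
Epha4: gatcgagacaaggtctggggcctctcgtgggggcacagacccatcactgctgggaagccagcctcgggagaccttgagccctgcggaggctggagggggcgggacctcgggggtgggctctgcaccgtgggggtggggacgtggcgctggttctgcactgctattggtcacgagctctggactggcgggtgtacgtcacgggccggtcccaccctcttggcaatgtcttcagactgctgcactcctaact
Epha5: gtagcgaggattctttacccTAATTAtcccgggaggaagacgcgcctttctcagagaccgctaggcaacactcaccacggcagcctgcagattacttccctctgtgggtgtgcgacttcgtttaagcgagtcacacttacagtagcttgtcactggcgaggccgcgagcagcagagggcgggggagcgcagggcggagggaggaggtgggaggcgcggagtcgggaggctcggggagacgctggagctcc
Epha6: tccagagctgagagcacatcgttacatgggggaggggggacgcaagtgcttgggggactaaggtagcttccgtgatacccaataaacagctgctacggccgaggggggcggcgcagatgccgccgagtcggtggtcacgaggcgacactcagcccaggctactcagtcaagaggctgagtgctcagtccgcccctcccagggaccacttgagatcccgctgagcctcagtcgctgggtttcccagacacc

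The TEAD motif was found in the Epha3 promoter, 244 bases before the start, and in no other member's. It is held by 12.64% of 32851 mouse promoters of the same length. TAATTA was found in the Epha5 promoter, 230 bases before the start, and is held by 4.84% of promoters. The forkhead motif GTAAACA, on either strand, held by 3.17% of promoters, was in none of the members' windows. GC content was 62.8% for Epha3, 66.0% for Epha4, 62.4% for Epha5 and 62.8% for Epha6, above the median of 52.4% over all promoters. These matches describe letters only and show no binding. By GENCODE M21 on the same build, the other members lie at chr4:28813131-28967499 (Epha7), chr9:101922128-102354693 (Ephb1), chr4:136647539-136835988 (Ephb2), chr16:21204755-21223305 (Ephb3) and chr5:137350109-137378669 (Ephb4).

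The first comparison asked where in the nose the receptors are expressed. All 9 were called higher in mesenchyme than the mean of the log2 levels in 6 other cell classes, and the class order differed from gene to gene: Ephb1 and Ephb4 were also high in endothelial cells, Epha4 and Ephb1 in epithelium, and Epha5, Epha7 and Ephb2 in glia. Macrophages had low levels throughout. The test was edgeR's quasi-likelihood test on UMIs summed per library and class, with library as a block and Benjamini-Hochberg adjustment over 10686 genes. It called 9 of 9 members higher in mesenchyme, where 29.2% of all genes tested were higher, and the members' median difference was 2.19 on the log2 scale against 0.0389 over all genes. Over the 7 classes tested, 41 of 63 pairs of member and class were called, 25 higher and 16 lower, against 37.8% of all gene and class pairs. A sum over cells cannot tell fewer expressing cells from less RNA per cell.

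Epha3, which in other tissues directs axons and heart cushion formation, had the second largest difference between mesenchyme and the other classes, after Epha6. It stood at 251, 307, 463 and 307 CPM in mesenchyme of control 1, control 2, mutant 1 and mutant 2, a mean of 331.9 ± 91.2 (SD, n = 4 libraries, both genotypes together). In epithelium it stood at 12.4, 8.66, 11 and 11.9 CPM. The lowest mesenchyme library was thus far above the highest epithelial one, and the fitted difference of mesenchyme from the other classes was 3.61 ± 0.23 (log2, SE). Macrophages gave 19.7 and 14.7 CPM in the controls and no Epha3 UMI in the mutants, where a count of 0 allows up to 5.625 CPM in mutant 1 and 4.35 CPM in mutant 2. The 10 mesenchyme markers summed to 83.35 and 177 CPM in macrophages of the controls and to 9.38 and 72.5 CPM in those of the mutants. The part of such RNA in the macrophage Epha3 values was not tested. Of all Epha3 UMIs, 94.23% came from mesenchyme cells.

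Epha6, a receptor known from retinal axon mapping, was sparser. It had 42.5, 60.3, 25.4 and 48.8 CPM in mesenchyme, a difference of 3.94 ± 0.35 from the other classes, and 94.04% of its UMIs were in mesenchyme. Mutant 1 was lowest for Epha6 and highest for Epha3. In chondrocytes Epha6 reached 51.7 CPM in mutant 1 and at most 3.29 CPM in the other libraries, so its level there rests on 1 library, and that contrast was not called (adjusted p = 0.227, edgeR's quasi-likelihood test).

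Epha4, Epha5 and Epha7 were shared with non-mesenchymal cells. Epha4, the receptor that binds both ephrin classes and is needed for the boundary at the coronal suture, had 106, 163, 205 and 144 CPM in mesenchyme (2.61 ± 0.16 above the other classes). It stood at 93.0, 92.4, 96.5 and 93.3 CPM in epithelium, a spread of under 5 CPM over the libraries. Epithelium (1.83 ± 0.18) and chondrocytes (1.64 ± 0.25) were both called higher. Epha5, an axon mapping receptor, had 71.3, 64.2, 77.8 and 92.2 CPM in mesenchyme and 47.9, 90.8, 91.1 and 91.7 CPM in glia, whose ranges overlap. Epha7, which guides axons and neural tube closure, had 121, 142, 160 and 126 CPM in mesenchyme and 86.2, 82.5, 182 and 111 CPM in glia, again overlapping. Epha5 (2.20 ± 0.38) and Epha7 (1.87 ± 0.27) were both called higher in glia, a class of 43, 27, 32 and 21 cells.

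Among the B class, Ephb1, known for sorting retinal axons at the chiasm, was the least mesenchymal, with 47.99% of its UMIs in mesenchyme. It had 17.4, 17.9, 22.4 and 22.2 CPM in mesenchyme, 61.3, 115, 51.4 and 42.6 CPM in endothelial cells and 65.3, 20.2, 70.6 and 53.4 CPM in epithelium. All 4 endothelial values lay above all mesenchyme values. Its mesenchyme mean of 19.96 CPM was below those of endothelium (67.6), epithelium (52.4) and glia (33.6), and above those of chondrocytes (6.29), macrophages (1.02) and mural cells (1.00 CPM), so its call in mesenchyme is against a mean of logs that the near-empty classes lower. It was higher in endothelium by 3.01 ± 0.35 and in epithelium by 2.63 ± 0.30, and its call in mesenchyme (0.96 ± 0.38, adjusted p = 0.0391, edgeR's quasi-likelihood test) was the weakest of the 9 and was lost with DESeq2 (adjusted p = 0.0574) and without control 1, mutant 1 or mutant 2 (adjusted p from 0.0941 to 0.127).

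Ephb4, the receptor of venous endothelium that pairs with ephrin-B2 on arteries, had 63.8, 53.7, 50.2 and 59.8 CPM in endothelial cells and 35.4, 42.7, 38.5 and 39.1 CPM in mesenchyme. The endothelial libraries were all above the mesenchyme libraries, and endothelium was higher than the other classes by 2.04 ± 0.18. Ephb2, which with Ephb3 acts in palate growth and axon crossing, had 63.2, 69.1, 57.3 and 64.7 CPM in mesenchyme and 83.8, 78.4, 83.1 and 58.9 CPM in glia, with mutant 2 below the other glia libraries. Ephb3 was close in mesenchyme (28.1, 31.9, 33.1 and 29.9 CPM) and in chondrocytes, and both classes were called higher, by 2.00 ± 0.14 and 2.01 ± 0.23. Osteoblasts, too few in control 2 (7 cells) and mutant 1 (13 cells) to be tested, had 144, 124, 90.1 and 136 CPM of Ephb2.

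By class, 5 members were called higher in chondrocytes (19.1% of all genes were higher there), 5 in glia (12.2%), 4 in epithelium (29%) and 2 in endothelium (21.7%). Lower calls went to 8 members in macrophages (29.5%), 4 in endothelium (14.4%), 2 in epithelium (21.2%) and 2 in mural cells (6.57%), while 0 were higher in mural cells (11.8%) and 0 lower in glia (8.14%). Of the 8 ephrins, 7 were higher in mesenchyme, with a list median of 1.70. The exception, Efna1, an ephrin-A of blood vessels, had 8.11 ± 2.12 CPM in mesenchyme and 93.8 ± 12.6 CPM in endothelium. Efnb2 was likewise higher in endothelium (135.2 ± 36.1 CPM) than in the other classes. Of the 20 relay and cleavage genes, 19 were tested, and 8 were higher and 6 lower in mesenchyme (median -0.04). Of the 5 other Eph receptors only Epha2 was tested. It was lower in mesenchyme and higher in endothelium (2.85) and epithelium (2.11).

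**Figure D1:**
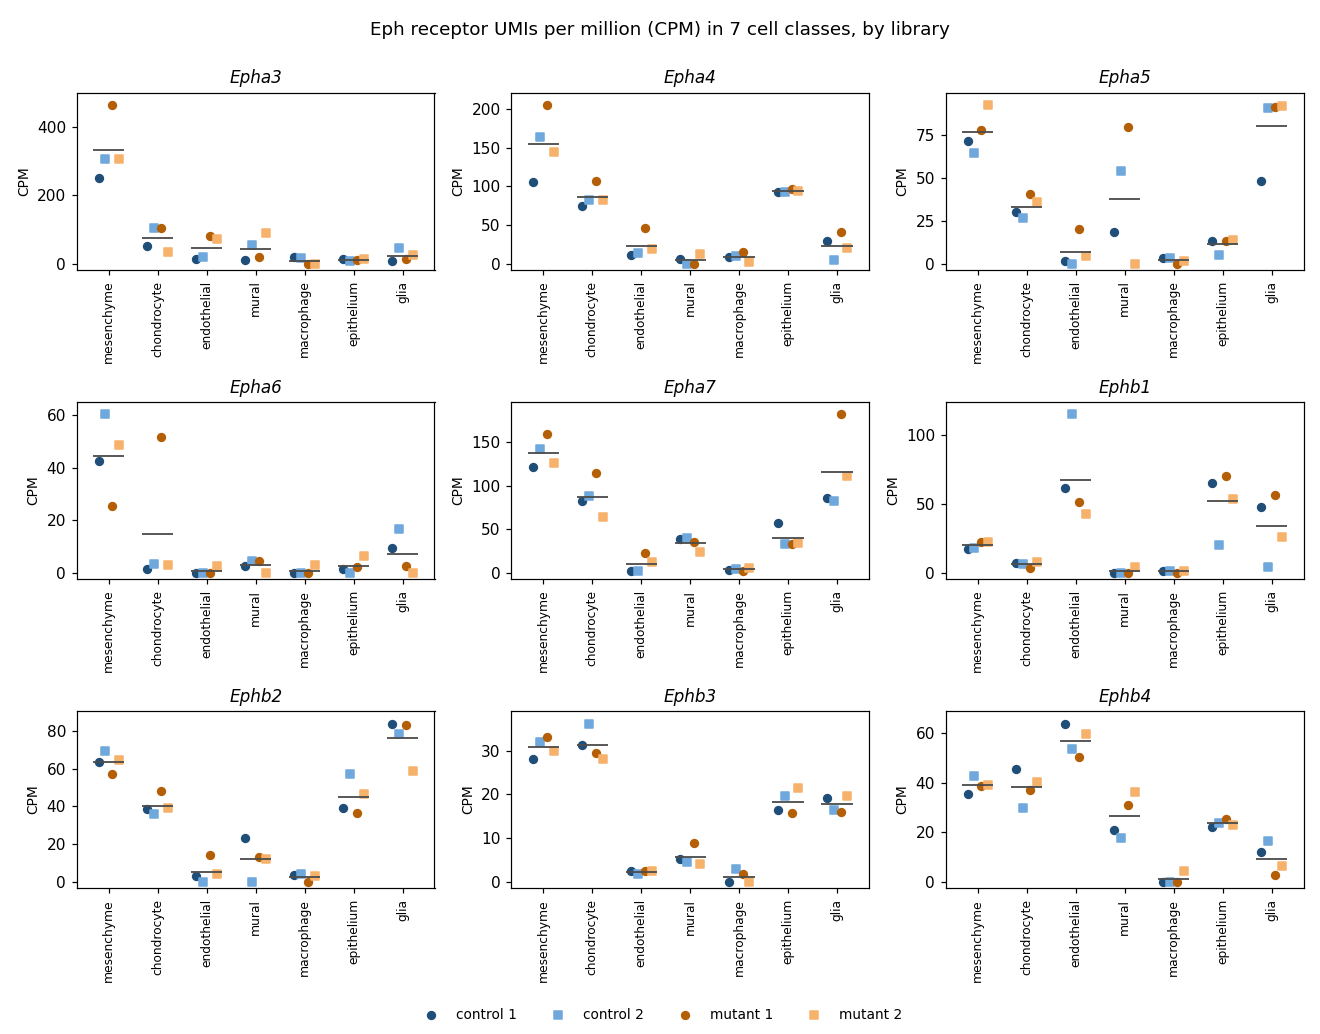
CPM (y axis) of each receptor in 7 cell classes (x axis); the 4 points are the 4 libraries (blue controls, orange mutants; circle replicate 1, square replicate 2) and the grey line is their mean. Epha3 is highest in mesenchyme in every library, while Ephb1 and Ephb4 are highest in endothelial cells by their means.

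The second comparison asked which combination of receptors each mesenchyme subtype carries. Subtypes were gated on genes that are not Eph receptors, and a cell entered a gate only when it met no other. The 7 gates tested were Pou3f4 (a POU factor; 344 cells), Osr1 (an odd-skipped factor; 1484), Foxl2 or Agtr2 (a forkhead factor or the angiotensin II type 2 receptor; 687), Shox2 (a homeobox factor of the palate; 950), Pax9 with Osr2 without Shox2 (palate and tooth factors; 195), at least 2 of Itgbl1, Crym and Cldn11 (148) and Runx2 with Alpl without Sp7 (bone-forming genes before Sp7; 491). A further 3175 mesenchyme cells met no gate and 2711 met several. Receptor levels differed between the gates. Epha3 was highest in the Osr1 and Pax9-Osr2 gates, Epha4 in the Osr1 gate, Epha5 in the Pax9-Osr2 gate and Epha6 in the Foxl2-or-Agtr2 and Shox2 gates. The Itgbl1-Crym-Cldn11 gate had the lowest Epha3 and Epha6 means, with Epha7 at a mean of 176.1 CPM, and Ephb1 and Ephb4 were called in no gate.

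Each gate was set against the mean of the other 6 by edgeR's quasi-likelihood test with library as a block, adjusted over 10679 genes. Of 63 pairs of member and gate, 18 were called, 10 higher and 8 lower, against 12.2% of all gene and gate pairs. Calls fell on 7 of the 9 members, and 42.2% of all genes were called in at least 1 gate. A-class members (Epha3 to Epha7, each tested in 7 gates) held 15 of the 18 calls. B-class members (Ephb1 to Ephb4, likewise) held 3. Mean levels over the gates ran from 36.7 to 317 CPM in the A class and from 20.1 to 55.7 CPM in the B class. The part of level in these counts was not tested. With 148 and 195 cells over the 4 libraries, the Itgbl1-Crym-Cldn11 and Pax9-Osr2 gates rest on the fewest cells.

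Epha3 spanned 9.82-fold between the highest and lowest gate mean. In the Pax9-Osr2 gate it stood at 401, 789, 610 and 439 CPM in control 1, control 2, mutant 1 and mutant 2, and in the Osr1 gate at 376, 524, 667 and 560 CPM. These ranges overlap, and both gates were called higher, by 1.15 ± 0.18 (adjusted p = 2.33e-05) and 1.14 ± 0.14 (adjusted p = 5.94e-07). The Itgbl1-Crym-Cldn11 gate had 124, 33.6, 29.3 and 41.2 CPM, all 4 libraries below every library of every other gate, and was lower, with a difference of -2.26 ± 0.29 (adjusted p = 4.03e-07). Between them lay the Shox2 (309.0 ± 87.9), Foxl2-or-Agtr2 (306.4 ± 126.2), Runx2-Alpl (242.5 ± 31.3) and Pou3f4 gates (211.9 ± 24 CPM, SD, n = 4), and neighbours among these 4 overlapped.

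Epha4 had a narrower span of 3.53-fold and a different order. The Osr1 gate led with 142, 260, 297 and 208 CPM (0.86 ± 0.10, adjusted p = 1.21e-07, edgeR's quasi-likelihood test). The Pou3f4 gate followed with 139, 136, 188 and 199 CPM (0.41) and the Foxl2-or-Agtr2 gate with 122, 169, 227 and 143 CPM (0.37). All 3 were called higher, but their ranges overlap, and the call in the Foxl2-or-Agtr2 gate was lost with DESeq2 (adjusted p = 0.0867) and without control 2 or mutant 1, that in the Pou3f4 gate without mutant 2 (adjusted p = 0.105). At the other end the Itgbl1-Crym-Cldn11 gate was tight, at 70.8, 62.5, 62.2 and 61.7 CPM (-1.10 ± 0.19), with the Runx2-Alpl gate next at 91.2 ± 15.0 CPM (-0.52). Both were called lower.

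Epha6 was high in a pair of gates. It stood at 96.9, 139, 46.3 and 142 CPM in the Foxl2-or-Agtr2 gate and at 73.7, 112, 51.5 and 43.8 CPM in the Shox2 gate. The gates overlap, mutant 1 was the lowest library of the former, and both were called higher, by 2.87 ± 0.26 (adjusted p = 8.06e-10) and 2.12 ± 0.28 (adjusted p = 1.65e-06). The Itgbl1-Crym-Cldn11 gate held 1 Epha6 UMI in control 1, 1 in mutant 2 and 0 in the others. Over all libraries that is 2 UMIs or 1.57 CPM, against 503 UMIs or 107 CPM in the Foxl2-or-Agtr2 gate. The ratio was 68.0, with a 95% interval from 18.73 to 563.02 that covers counting error only and treats UMIs as independent. Epha6 UMIs were concentrated in few cells. A single cell held 41 of the 143 in the Foxl2-or-Agtr2 gate of mutant 2, and 36 of the 79 in the Shox2 gate of mutant 1. In the Pou3f4 gate Epha6 was at 12 CPM in control 1, 6.41 in mutant 1 and 3.41 in mutant 2, with no UMI in control 2.

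Epha5 was highest in the Pax9-Osr2 gate, at 125, 142, 106 and 190 CPM (0.84 ± 0.22, adjusted p = 0.0102), and lowest in the Pou3f4 gate, at 67.4, 23.7, 35.3 and 56.3 CPM (-0.90 ± 0.23, adjusted p = 0.00317, edgeR's quasi-likelihood test). These 2 gates do not overlap. When at least 2 UMIs of a gate gene were asked for, the first call was lost at the same size (0.84, adjusted p = 0.111), and when cells of several gates were kept the second fell to -0.35 (adjusted p = 0.105). The second was also lost without mutant 1 (adjusted p = 0.0565).

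Epha7 had another order. Its lowest gates were Runx2-Alpl, at 69.4, 88.3, 128 and 66.0 CPM, and Foxl2-or-Agtr2, at 81.0, 101, 93.9 and 89.3 CPM, with fitted differences of -0.77 ± 0.13 (adjusted p = 8.43e-05) and -0.70 ± 0.13 (adjusted p = 0.000146), and both were called lower. The Pax9-Osr2 (185.2 ± 20.9), Itgbl1-Crym-Cldn11 (176.1 ± 60.3), Pou3f4 (169.3 ± 21.2), Shox2 (168.6 ± 33.2) and Osr1 gates (148.7 ± 28.7 CPM) were above, with neighbours overlapping. So the gate with the least Epha3 and Epha6 had Epha7 at 159, 264, 128 and 153 CPM.

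Of the B-class receptors, Ephb2 and Ephb3 had calls. Ephb2 was called higher in the Foxl2-or-Agtr2 gate (70.8, 72.6, 55.6 and 82.3 CPM; 0.44) and in the Shox2 gate (64.3, 79.8, 64.5 and 70.8 CPM; 0.35). Both calls were fragile: with 2 UMIs of a gate gene they fell to 0.30 (adjusted p = 0.172) and 0.06 (adjusted p = 0.901, edgeR's quasi-likelihood test), the Shox2 one was lost whichever library was left out, and the other was lost without control 1. Ephb3 was lower in the Pou3f4 gate, at 25.5, 17.8, 18.4 and 13.6 CPM (-0.69 ± 0.23), all below the Osr1 gate (34.1 ± 5.21 CPM). That call too was lost without control 2, mutant 1 or mutant 2 (adjusted p from 0.0534 to 0.225). Ephb1 ranged from 33.2 ± 16.1 CPM in the Pax9-Osr2 gate to 9.57 ± 12 CPM in the Itgbl1-Crym-Cldn11 gate, a span of 3.47-fold with overlapping libraries, and Ephb4 from 41.8 ± 5.56 to 28.2 ± 12.7 CPM, a span of 1.48-fold.

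**Figure D2:**
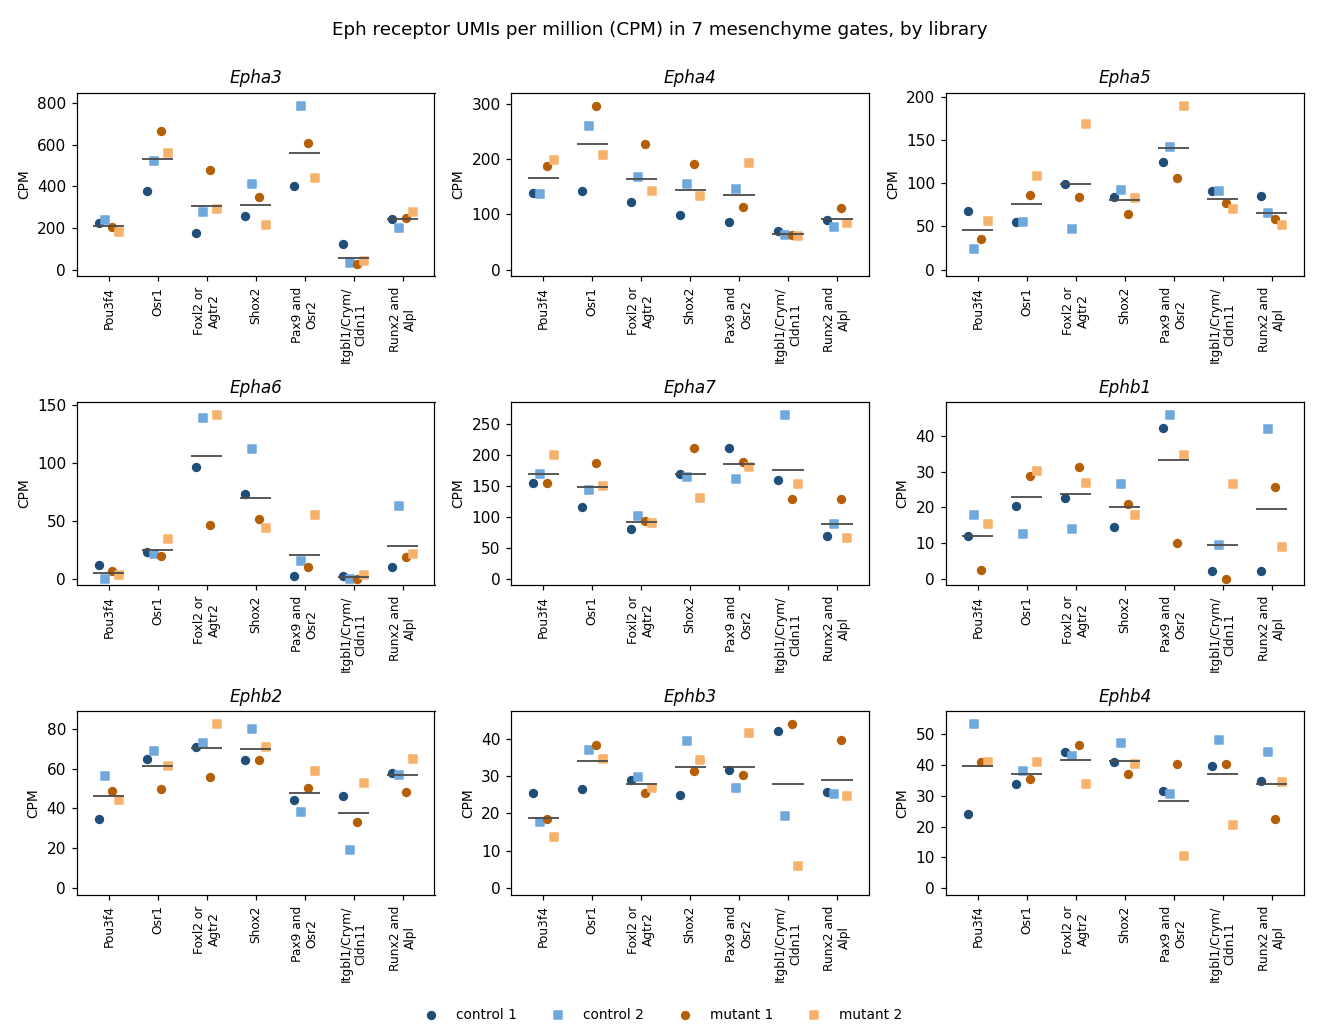
CPM (y axis) of each receptor in the 7 mesenchyme gates (x axis); points are libraries (blue controls, orange mutants; circle replicate 1, square replicate 2) and grey lines their means. Epha3 and Epha6 spread widely over the gates and Ephb4 stays between means of 28.2 and 41.8 CPM.

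Read by gate, members were called higher and lower as follows, with the share of all genes called in the same direction. The Osr1 gate had 2 higher (6.43%) and 0 lower (3.83%), the Pax9-Osr2 gate 2 higher (4.15%) and 0 lower (3.47%), and the Shox2 gate 2 higher (3.77%) and 0 lower (0.684%). The Foxl2-or-Agtr2 gate had 3 higher (7.58%) and 1 lower (3.14%). The Pou3f4 gate had 1 higher (13.3%) and 2 lower (13.7%). Lower calls alone were seen in the Itgbl1-Crym-Cldn11 gate, with 0 higher (7.95%) and 3 lower (4.85%), and the Runx2-Alpl gate, with 0 higher (8.03%) and 2 lower (4.66%). The members' median differences were 0.36 in the Foxl2-or-Agtr2 gate, 0.28 in Osr1, 0.15 in Shox2, 0.14 in Pax9-Osr2, -0.11 in Runx2-Alpl, -0.38 in Pou3f4 and -0.48 in Itgbl1-Crym-Cldn11, while the medians over all genes lay between -0.01 and 0.02.

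Markers of other cell types moved with the gate that had least Epha3. The 10 chondrocyte markers summed to 211 to 374 CPM in the Itgbl1-Crym-Cldn11 gate and to 40.5 to 177 CPM in the other 6 gates. The 10 endothelial markers summed to 73.2 to 129 CPM there and to 7.5 to 53.6 CPM in the other 6, and the 10 neuron markers to 43.9 to 96.1 CPM against 101 to 385 CPM. The mean level of Epha3 was 73.1 CPM in chondrocytes and 46.2 CPM in endothelial cells. In endothelial cells with at most 1 mesenchyme marker it was 2.17, 2.05, 2.23 and 6.04 CPM in control 1, control 2, mutant 1 and mutant 2. The part of RNA of other cell types in the receptor levels of the Itgbl1-Crym-Cldn11 gate was not tested.

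The ligands were also unevenly placed. Efnb2, the transmembrane ligand of Ephb4 that Epha4 can also bind, was highest in the Pou3f4 gate at 91.4, 94.8, 123 and 109 CPM. Every library of that gate was above every library of the other 6, and the difference was 1.54 ± 0.14 (adjusted p = 1.30e-10, edgeR's quasi-likelihood test). It was higher in the Osr1 gate too (64.5 ± 4.27 CPM; 0.66) and lower in the Itgbl1-Crym-Cldn11 gate (10.5 ± 8.69 CPM; -2.03 ± 0.30). The Osr1 and Pou3f4 gates were also those with the highest Epha4 means (226.9 and 165.8 CPM), but the Foxl2-or-Agtr2 gate was close to the latter at 165.1 CPM. In the Foxl2-or-Agtr2 gate Efnb2 had a difference of -0.42 that was not called.

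Efna5, a ligand of the A-class receptors, was highest in the Shox2 gate at 767, 909, 922 and 1233 CPM (0.75 ± 0.09) and lowest in the Itgbl1-Crym-Cldn11 gate (352.9 ± 41.0 CPM; -0.85 ± 0.13). The Itgbl1-Crym-Cldn11 gate was thus low in both ligands and in Epha3, Epha4 and Epha6. Efnb1, whose loss causes craniofrontonasal syndrome, was slightly higher in the Runx2-Alpl gate (72.5 ± 10.1 CPM; 0.37, adjusted p = 0.0444). Efna1 (2.40 CPM on average) and Efnb3 (14.1 CPM) were lower in the Pou3f4 gate. All 8 ephrins were tested in the gates, and none of the 5 other Eph receptors passed the filter on low counts.

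**Figure D3:**
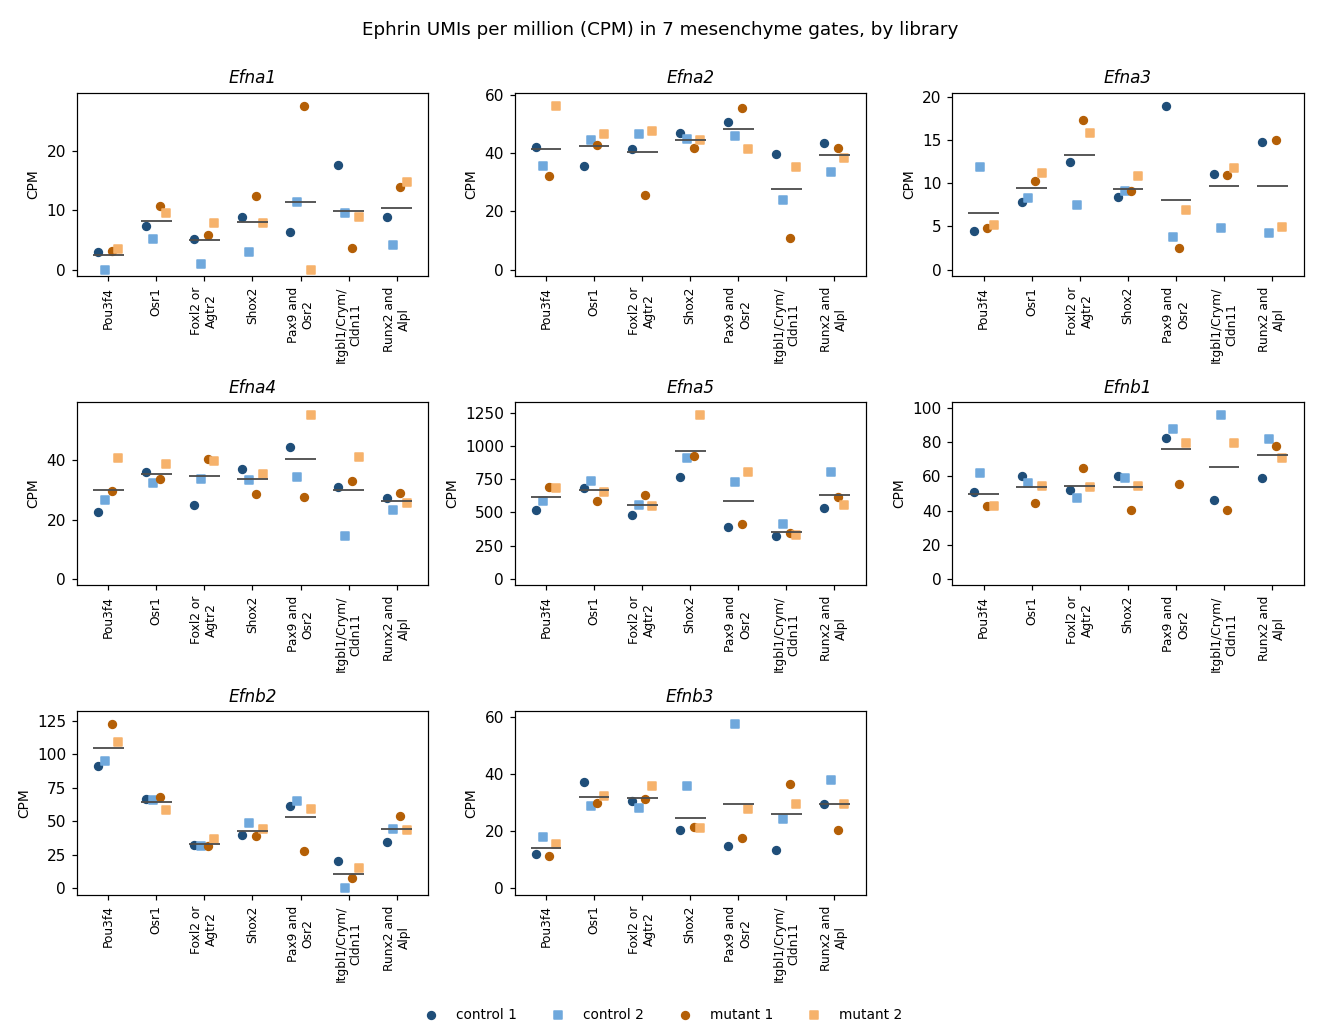
CPM (y axis) of the 8 ephrins in the 7 mesenchyme gates (x axis); points are libraries (blue controls, orange mutants; circle replicate 1, square replicate 2) and grey lines their means. Efnb2 is highest in the Pou3f4 gate in every library and Efna5 is lowest, by its mean, in the Itgbl1-Crym-Cldn11 gate.

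Of the 20 relay and cleavage genes, 19 were tested in the gates. The Pou3f4 gate had 3 higher and 2 lower: Chn1, the chimaerin that relays Epha4 signals (0.67), Tiam1, a Rac exchange factor (0.50), and the kinase Abl2 (0.46) against the adaptors Grb10 (-0.90) and Grip1 (-0.56). Vav3 was higher in the Shox2 (0.72) and Pax9-Osr2 gates (0.84) and lower in the Runx2-Alpl gate by a fitted -1.69 ± 0.19. Grip1 was higher in the Itgbl1-Crym-Cldn11 gate (0.98), as were Grb10 (0.46) and the protease Adam10, which cleaves ephrin complexes (0.65), while the Ras inhibitor Rasa1 was lower (-0.84). In the Foxl2-or-Agtr2 gate Fyn (0.52) and Grb10 (0.18) were higher and Tiam1 was lower (-0.57). Grb10 had its largest positive difference in the Runx2-Alpl gate (0.69), where Kalrn was lower (-0.35). Chn1 was also higher in the Osr1 gate (0.33), where Grip1 was lower (-0.46). In the Pax9-Osr2 gate Chn1 was lower (-0.66) and Rasa1 was higher (0.48).

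Combinations were then counted cell by cell, as a description without a test. Each cell was thinned at random to 3000 UMIs so that depth was equal, and 121, 71, 85 and 280 shallower mesenchyme cells of control 1, control 2, mutant 1 and mutant 2 were left out. At least 2 of the 9 receptors were detected in 38.5%, 41.5%, 46.3% and 40.3% of the remaining cells, and 28.8%, 25.5%, 23.2% and 28.0% had none. Mutant 1 was highest, and the other mutant lay between the controls. At full depth, without thinning, the mean over libraries was 67.7% with at least 2. In macrophages, where 8 of the 9 members were called lower, any receptor at all was found in 3.95%, 7.84%, 2.44% and 7.06% of thinned cells, with median depths of 9613, 8866, 10396 and 7520 UMIs against 6689, 6716, 8341 and 5146 in mesenchyme.

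The share with at least 2 receptors followed the gates. It was 42.6%, 64.1%, 58.1% and 56.3% in the Pax9-Osr2 gate and 39.3%, 44.7%, 55.6% and 48.6% in the Osr1 gate. The Itgbl1-Crym-Cldn11 gate had 28.8%, 20%, 26.9% and 25.6%, below every library of those 2 gates. Outside mesenchyme, chondrocytes had 23% to 37.5% and glia 7.69% to 30.0%, which overlap that gate, epithelium 14.6% to 19.5% and endothelium 5.48% to 7.69%.

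In all, 269 combinations were seen. Leaving aside the 2586 cells with none, single receptors were commonest: Epha3 alone in 664 cells, Epha7 in 569, Epha4 in 562 and Ephb2 in 460. The commonest pair was Epha3 with Epha4 (310 cells), then Epha3 with Epha7 (234) and Epha4 with Epha7 (219). The commonest set of 3 was Epha3, Epha4 and Epha7, in 40, 33, 73 and 42 cells of control 1, control 2, mutant 1 and mutant 2.

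Pairs were compared with the number expected if receptors were detected independently within each library and gate. Cells of no gate, of several gates and of the meninges type described below each formed a further group. Before thinning, 3175 of the 10247 mesenchyme cells met no gate and 2711 met several, and subtype was not held constant within those groups. Over all 36 pairs the ratio of observed to expected was 1.17, 1.19, 1.22 and 1.25. It was above 1 in all 4 libraries for 16 pairs and below 1 in all 4 for 0. Of the 10 pairs within the A class, 9 were above 1 in every library, with summed ratios of 1.24, 1.34, 1.35 and 1.42. Of the 20 pairs of an A with a B receptor 6 were (1.09, 1.09, 1.09 and 1.10), and of the 6 B pairs 1 was (1.17, 1.00, 1.15 and 1.14). Summed by kind, A-class pairs were above both other kinds in all 4 libraries. They were so also with predicted doublets removed (1.24, 1.34, 1.36 and 1.43), an alternative added after the data were seen. Single pairs did not all follow their kind. Ephb1 with Epha3, Epha4, Epha5 and Epha7 had ratios of 1.37, 1.54, 1.48 and 1.30, each above 1 in all 4 libraries. The median ratio was 1.31 for A-class pairs and 1.09 for pairs of an A with a B receptor. The members of a pair are counted in the same cells and gates are broad, so these ratios share library, depth and subtype mixture.

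The highest ratio was that of Epha5 with Epha6, at 1.40, 1.59, 1.46 and 2.10, though on 117 cells against 69.9 expected. Epha3 with Epha5 followed at 1.45, 1.70, 1.45 and 1.78, on 606 cells against 381.5. Epha3 with Epha4, the commonest pair, had 1.18, 1.44, 1.38 and 1.44 (1134 against 833). Epha6 with Ephb1 was lowest, at 24 cells against 26.1, with ratios of 0.575, 1.63, 1.22 and 0.574 on both sides of 1.

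**Figure D4:**
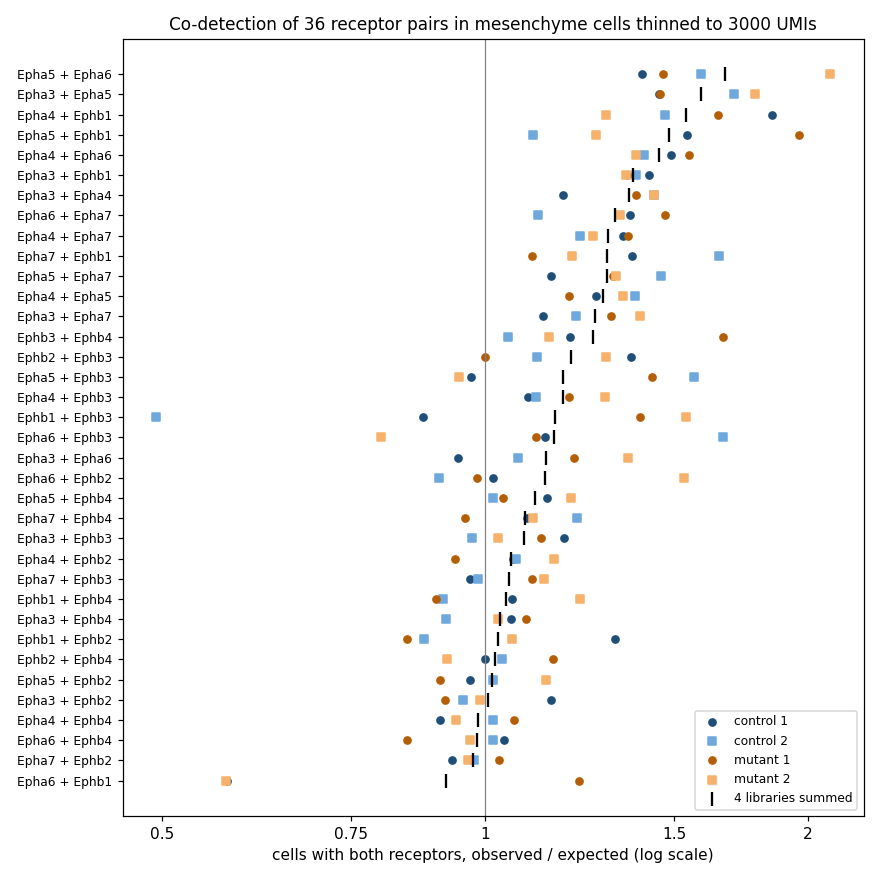
Ratio of observed to expected co-detection (log axis) for the 36 pairs of receptors in mesenchyme cells thinned to 3000 UMIs, by library (blue controls, orange mutants; circle replicate 1, square replicate 2), with a black tick for the 4 libraries summed. Epha5 with Epha6 is highest at 1.67 and Epha6 with Ephb1 lowest at 0.92.

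The third comparison asked whether the receptors differ between mutants and controls. In mesenchyme none did by the test: edgeR's quasi-likelihood test with Benjamini-Hochberg adjustment called 0 of 9 members and 0% of 16185 genes, with 2 members and 1232 genes at an unadjusted p under 0.05. DESeq2 called 0 members and 60 of the 14381 genes it adjusted. The members' median change was 0.08 (log2, mutant minus control), against 0.0028 over all genes. With 2 libraries per group, an exact permutation test of a single value cannot go below p = 0.333.

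Epha3 had the largest positive change in mesenchyme, 0.43 ± 0.20 (SE; adjusted p = 0.663), from 251 and 307 CPM in the controls to 463 and 307 CPM in the mutants. Mutant 1 alone was above both controls. Epha6 had the largest negative one, -0.51 ± 0.29 (adjusted p = 0.705), again with mutant 1 as the outlying library at 25.4 CPM. Libraries of the genotypes did not overlap for Epha5 (71.3 and 64.2 against 77.8 and 92.2 CPM; 0.29 ± 0.11, adjusted p = 0.633) and Ephb1 (17.4 and 17.9 against 22.4 and 22.2 CPM; 0.31 ± 0.11, adjusted p = 0.602). How many of all genes lacked overlap was not counted. With 2 libraries per group, a lack of overlap has p = 0.333 for a single gene by an exact permutation test. The other 5 members had values of 0.34 ± 0.23 (Epha4), 0.08 ± 0.14 (Epha7), -0.15 ± 0.10 (Ephb2), 0.04 ± 0.11 (Ephb3) and -0.04 ± 0.11 (Ephb4).

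Within the gates, 58 of 63 pairs of member and gate could be tested and 0 were called, with 8 at an unadjusted p under 0.05. Over all genes, the share at an unadjusted p under 0.05 ran from 3.74% in the Itgbl1-Crym-Cldn11 gate to 7.87% in the Osr1 gate. Of all genes tested, 0.0434% were called in the Osr1 gate, 0.0165% in the Pax9-Osr2 gate, 0.0106% in the Runx2-Alpl gate and 0% in the other 4. Epha5 in the Osr1 gate had 55.4 and 54.6 CPM in the controls against 86.4 and 109 CPM in the mutants (0.78 ± 0.16, adjusted p = 0.218). Epha6 in the Shox2 gate had 73.7 and 112 CPM in the controls against 51.5 and 43.8 CPM in the mutants (-0.98 ± 0.21, adjusted p = 0.200). Ephb1 in the Osr1 gate had 20.4 and 12.5 against 28.7 and 30.2 CPM (0.81 ± 0.25, adjusted p = 0.439). These were the pairs with the smallest adjusted p, and none of them passed.

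Epha3 had values of opposite sign in different gates, 0.72 ± 0.25 in the Foxl2-or-Agtr2 gate and -1.31 ± 0.47 in the Itgbl1-Crym-Cldn11 gate, where control 1 alone was high (124 CPM). The test of the difference between gates, the interaction of gate and genotype, called 0 of 9 members and 0.0281% of 10679 genes (503 genes at an unadjusted p under 0.05), with Epha3 and Epha5 both at adjusted p = 0.895 by edgeR's quasi-likelihood test. No ephrin and no relay gene was called between genotypes in any of the 16 sets of cells fitted.

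**Figure D5:**
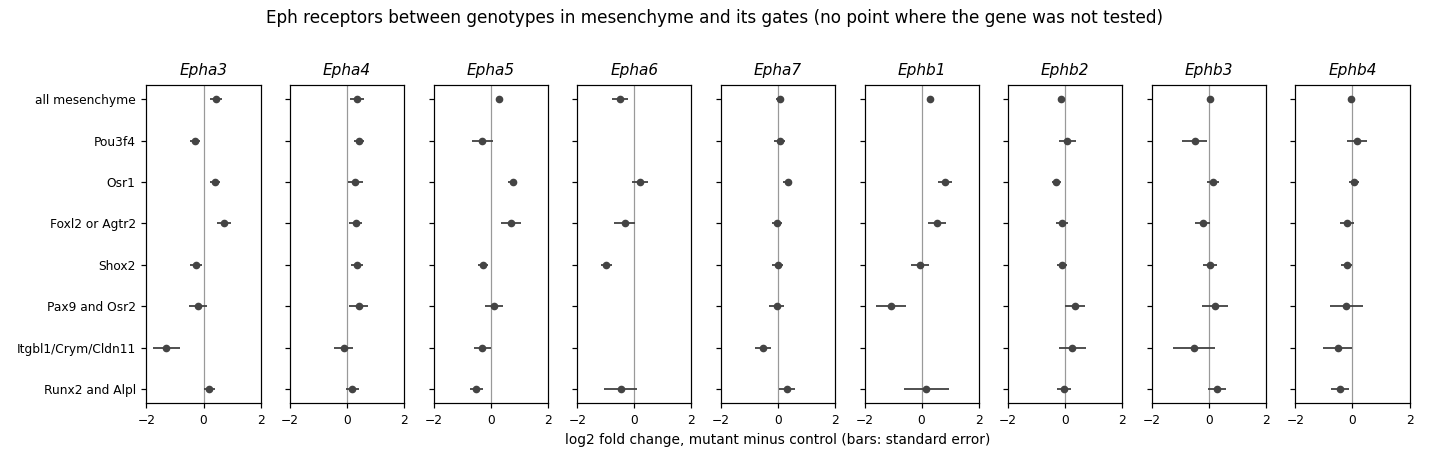
Change between genotypes (log2, mutant minus control, x axis) of each receptor in mesenchyme as a whole and in its gates (y axis). Points are edgeR estimates and bars their standard errors, with no point where a gene was not tested. None of these changes passed the test.

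One member was called in another class: Epha3 in endothelial cells, singled out after its values were seen. The controls had 12.3 and 19.2 CPM, and the mutants, both above them, 81.3 and 72.1 CPM, a difference of 2.37 ± 0.31 (adjusted p = 0.018), where 5 members were tested and 0.0558% of 8956 genes were called. The call rests on 15, 10, 68 and 88 UMIs, and a single cell of each library held 10, 9, 31 and 57 of them. Those 4 cells had 5, 7, 9 and 5 of the 10 mesenchyme markers beside 8 to 10 endothelial ones. The endothelial cells with at most 1 mesenchyme marker (54, 27, 29 and 63 cells) held 2, 1, 1 and 4 Epha3 UMIs, or 2.17, 2.05, 2.23 and 6.04 CPM, and Epha3 then fell below the filter. All 10 mesenchyme markers were detected in the class, summing to 180 and 222 CPM for the controls and to 365 and 323 CPM for the mutants. With predicted doublets removed, mutant 1 kept 1 Epha3 UMI (1.61 CPM), below control 1 (2.06 CPM) and control 2 (19.8 CPM), and mutant 2 alone stayed high (73.2 CPM). The call was then lost (2.28, adjusted p = 0.991), a value that rests on mutant 2. It was also lost without control 1 (2.00, adjusted p = 0.0637) and without control 2 (2.6, adjusted p = 0.341), and was kept when either mutant was left out.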

How the data were processed

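Gene-by-cell matrices hold whole-number UMI counts, deposited by the authors per sample. Per the file headers they come from cellranger-8.0.1, whereas the submitters' processing notes name Cell Ranger 4, Seurat 4.3.0 and build mm10. Libraries were made with a 10x 3′ kit, per the labels' protocols; values are not scaled by gene length and are compared within a gene. A further nose sample named in the protocol was not analysed here.

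The filter of 500 genes and 10% mitochondrial UMIs left 35331450, 19767873, 29121739 and 26874057 UMIs in control 1, control 2, mutant 1 and mutant 2. A cell took the class with most detected markers, with at least 3 and no tie, a minimum set from the marker counts after looking at them; 758 cells stayed unassigned. Scrublet (scanpy 1.11.5) called 1, 3, 0 and 1 doublets, so the filtered matrices were used as they are, and removing the top-scored 133, 49, 72 and 141 barcodes was an alternative. UMIs were summed per library and set with at least 20 cells in every library, and tested in edgeR 4.0.16 (R 4.3.3; filterByExpr, TMM, glmQLFit, glmQLFTest) with Benjamini-Hochberg adjustment at 0.05. Standard errors are the absolute log2 fold change over the square root of F. DESeq2 1.42.0, size factors, filters, gate definitions, a replicate block and leaving out each library were alternatives. The scripts were tested on simulated data.

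All 9 members were named, with ephrins, relay genes and other Eph receptors by call; likeness was the 2 highest Pearson r over the 7 gate means, of which 1 gene is not reported here. The members and lists were chosen with earlier results of these data known. Promoters are from RefSeq (GRCm38.p6), matched by symbol for all 9 members, of which Epha7 has 2 starts. Intervals cover counting error only.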

Additional observations from a re-analysis of the deposited data

Results flagged for a closer look

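The change of Epha3 between genotypes differed between endothelial cells and mesenchyme by a test of the difference itself. It was 1.94 larger (log2) in endothelial cells (adjusted p = 0.0052, edgeR's quasi-likelihood test of the interaction of class and genotype, added after the data were seen), where 0.183% of 14200 genes were called. All 4 endothelial libraries and all 4 mesenchyme libraries enter it, with both mutants above both controls in endothelium. Leaving out each library gave 1.71 to 2.21, all called. With predicted doublets removed, mutant 1 fell to 1.61 CPM in endothelium, below both controls (2.06 and 19.8 CPM), and mutant 2 stood at 73.2 CPM. The difference of 1.91 then rests on mutant 2 and was not called (adjusted p = 0.746). Most endothelial Epha3 UMIs lay in 2, 1, 3 and 12 cells of control 1, control 2, mutant 1 and mutant 2. They were among the 12, 3, 9 and 41 cells with at least 2 mesenchyme markers and held 13, 9, 67 and 84 of the UMIs. What part these cells have in the difference was not tested beyond those counts. Epha7 had the next smallest p of the 9 members in this test (2.74, adjusted p = 0.0506) and was not called.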

How the results depend on the processing

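Of the 18 calls of member and gate, 17 were kept with DESeq2, 18 with its size factors in edgeR, 18 without the filter on low counts, 17 with stricter cells, 18 with doublets removed, 17 with cells of several gates kept and 14 to 16 when 1 library was left out; with 2 UMIs of a gate gene the Pou3f4 gate was too small, and 12 of the other 15 were kept. Without the filter on low counts, the genotype test in mesenchyme called 2 members, with 609 of 25077 genes in place of 0. The members were Epha3 (0.43, adjusted p = 0.0122) and Epha6 (-0.50, adjusted p = 0.000867, edgeR's quasi-likelihood test). The interaction of gate and genotype without that filter called 3 members. How many of all genes it called is not given here, so these 3 cannot be set against a share. Leaving out 1 library called 686, 19, 0 and 1 genes in mesenchyme and no member. In the same fits Epha7 ranged from -0.12 to 0.25, negative without control 1 or mutant 1, Ephb3 from -0.056 to 0.13, negative without the same libraries, and Ephb4 from -0.18 to 0.097, positive without control 2. Epha3 in endothelium ranged from 2.00 to 2.6 over the libraries left out and was 2.28 with doublets removed, where mutant 1 was at 1.61 CPM, below both controls, and the value rests on mutant 2. Co-detection depends on depth: at 5000 UMIs 57.0% of mesenchyme cells had at least 2 receptors and the ratio over all pairs was 1.14, and without thinning 67.7% and 1.13, against 41.7% and 1.21 at 3000 UMIs. Replicate numbers are shared by the genotypes but do not pair the libraries (correlation of same-numbered deviations -0.03 in mesenchyme, 0.02 in endothelium, 0.07 in epithelium). The fit with a replicate block called 0 members and 37 genes in mesenchyme, and 3 members and 141 genes in endothelium, where Epha3 was 2.36 (adjusted p = 7.01e-09); it leaves 1 residual degree of freedom. The causes of these shifts were not tested. The 2 libraries per genotype limit every genotype comparison.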

Other observations

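Genes whose level followed a member most closely over the 7 gate means were found among 6992 genes with at least 20 CPM on average, by Pearson's r of log2(CPM + 1). With 7 points per gene and this many candidates, a high r is a description only. Epha3 was followed by Msrb2 (0.982) and Ssbp3 (0.981), Epha4 by Lrrtm3 (0.989), Epha5 by Dlgap1 (0.991) and Aebp2 (0.986), and Epha6 by Keap1 (0.988) and Pja2 (0.976). Epha7 was followed by Ddx24 (0.984) and Rbx1 (0.969). For the B class the genes were Kansl3 (0.990) and Cdk10 (0.987) for Ephb1, Dlc1 (0.977) and Rspo1 (0.967) for Ephb2, Abi3bp (0.971) and Hif1a (0.964) for Ephb3, and Aida (0.976) and Htra1 (0.975) for Ephb4.

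Cells gated by meninges-type genes, at least 2 of Slc6a13, Slc22a6, Aldh1a2, Foxc2 and Zic1, were too few to test, with 20, 29, 4 and 9 cells in control 1, control 2, mutant 1 and mutant 2. Their Epha7 stood at 323, 287, 211 and 333 CPM and their Epha3 at 68.8, 42.2, 30.2 and 227 CPM. Epha6 stood at 288 CPM in mutant 2 against 0 to 30.2 CPM in the other libraries. All 19 Epha6 UMIs of mutant 2 lay in 1 of its 9 cells, and the 30.2 CPM of mutant 1 was 1 UMI.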
